A study of Rattus norvegicus with 3 samples.

Results

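The Wnt ligands, receptors and antagonists on a rat expression array were followed in ROS17/2.8 cells given polyphosphate. The genes were chosen by name, from gene names that the array files carry for Wnt ligands, Frizzled and Lrp receptors, R-spondins, secreted antagonists, the enzymes Porcn and Notum, the Axin and Nkd proteins, the Tcf and Lef factors and the Wisp proteins, and the rule uses no measured value. They number 61 of 26115 gene names, read by 74 of 30367 probes and by 161 of 58717 spots on each array.

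ROS17/2.8 is an established osteoblast-like line derived from a rat osteosarcoma, and polyphosphate is a chain of phosphate units joined by high-energy bonds. All groups shared the same confluent cells and the same mineralization medium with ascorbate phosphate and β-glycerophosphate. The high dose group received 1 mg/ml polyphosphate for 24 h, the low dose group received 0.01 mg/ml for 24 h, and the control group received none, with no culture time in its label. Each group is 1 sample on 1 one-colour array, so no difference has a replicate check, no p-value is given, and every statement compares 3 arrays and not the conditions in general. The findings hold for 1 cell line and 1 time after treatment.

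Wnt proteins are secreted signals that carry a lipid added by the acyltransferase Porcn. They bind Frizzled receptors together with the co-receptors Lrp5 or Lrp6. In the canonical pathway this stops the degradation of beta-catenin, which then joins Tcf and Lef factors on DNA. In bone, Wnt signalling favours osteoblast formation and function, and secreted antagonists such as Sost and Dkk1, which bind the co-receptors, hold it back. Wif1 and the Sfrp proteins bind the ligands themselves, and Notum removes their lipid.

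A processed signal is the brightness of a spot after background subtraction, in arbitrary units. Signals were scaled so that the 75th percentile of every array equalled that of the control array, which multiplies all signals of an array by 1 factor. The 75th percentile before scaling was 937 with the high dose, 964 with the low dose and 926 in the control. A probe counts as well above background when 50% or more of its spots carry that scanner flag, and of all probes 55.9% to 57.2% did so on an array, with 0 saturated spots. The spot error is the standard error of a log2 ratio, taken from repeat spots of probes at a like level, and covers measurement on the array only. Of 10 osteoblast markers 8 were well above background on every array, with Dmp1 and Phex, which mark late osteoblasts and osteocytes, below it. Of 5 chondrocyte markers Sox9 alone and of 5 adipocyte markers Fabp4 alone were above background, against 4 of 5 skeletal myocyte, 3 of 5 endothelial and 4 of 6 macrophage or osteoclast markers, with 5 of 6 of the last in the control. Sox9 was itself 0.41 ± 0.09 higher on the log2 scale with the low dose than in the control. The part of any other cell type in the results was not tested.

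The results below turn on 4 probes, those of Wnt6, Wnt1 and Notum, which passed the call rule given further on, and of Wif1, which has the most spots of any member probe above background. Their opening 30 of 60 bases are shown to identify what each spot detects, 5′ to 3′ and with no letter capitalised, since no part of the probe was singled out.
Wnt6: tcctcagaattactggggtggatgggtgag
Wnt1: tcgcccccaccgatgtagtatcttcctctg
Notum: aaggagaggaatggaattgcttctttggct
Wif1: ggttcgagttacgccgagttcacagccttt
The files place the Wnt6 probe at chr9:74117575-74117634 of rat build rn4 on the plus strand, the Wnt1 probe at chr7:137561824-137561883 on the plus strand, and the Wif1 probe at chr7:60399964-60400023 on the plus strand. The Notum probe is placed at chr10:110048807-110049298 on the minus strand, a span longer than its 60 bases. Exon and UTR annotation of rn4 was not used here. Wnt6 lies beside Wnt10a, with 19.7 kb between their probes, and Wnt1 beside Wnt10b, with 20.6 kb between theirs.

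About 1 member in 2 was detectable in these cells. Well above background were 33 members (54.1%) with the high dose, 31 (50.8%) with the low dose and 33 (54.1%) in the control. Over all gene names the shares were 56.4%, 57.0% and 57.6%. On all 3 arrays 30 members (49.2%) were well above background, against 55.1% of all gene names.

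Detection differed by role. Of 19 Wnt ligands 9 were well above background on every array and 10 on no array. The 9 were Wnt1, Wnt4, Wnt5a, Wnt5b, Wnt6, Wnt7a, Wnt7b, Wnt10a and Wnt10b. Of 13 receptors 9 were above background on every array, namely Fzd1, Fzd2, Fzd3, Fzd6, Fzd7, Fzd10, Lrp4, Lrp5 and Lrp6. Of 12 secreted antagonists 2 were above background throughout, Dkk1 and Wif1, while Sost, Sfrp4 and Sfrp5 were on some arrays and 7 on none. Of 4 R-spondins, secreted proteins that strengthen Wnt signalling, Rspo3 alone was detected. Porcn and Notum, 3 of 4 intracellular inhibitors (Axin1, Axin2 and Nkd2), 3 of 4 Tcf and Lef factors (Tcf7, Tcf7l1 and Tcf7l2) and 1 of 3 Wisp proteins (Wisp1) were above background on every array, and Lef1 on some.

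**Figure D1:**
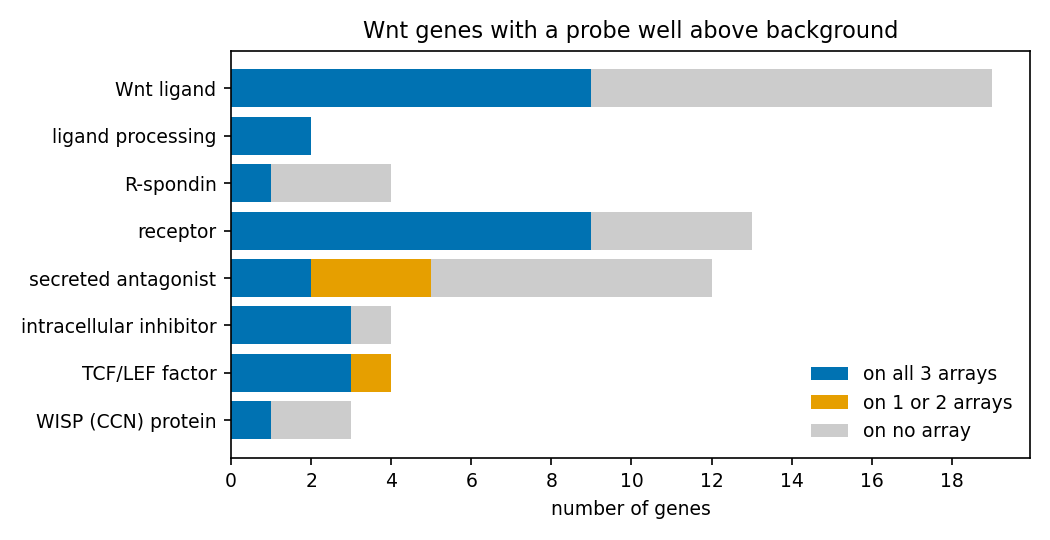
Number of member genes (x axis) in each role (y axis) with a probe well above background on all 3 arrays, on 1 or 2 arrays, or on none. The 19 ligands and 13 receptors each have 9 genes detected throughout, and the 12 secreted antagonists have 2.

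The 27 members below background on every array were Wnt2, Wnt2b, Wnt3, Wnt3a, Wnt8a, Wnt8b, Wnt9a, Wnt9b, Wnt11, Wnt16, Fzd4, Fzd5, Fzd8, Fzd9, Rspo1, Rspo2, Rspo4, Dkk2, Dkk3, Dkk4, Frzb, Sfrp1, Sfrp2, Sostdc1, Nkd1, Wisp2 and Wisp3. Among them are Wnt3a, a ligand much used to switch on the canonical pathway in culture, and Sfrp1. Their 70 spots had unscaled signals from 4.44 to 26.9 (median 5.94) with the high dose, from 4.13 to 51.5 (median 5.32) with the low dose and from 3.89 to 33.3 (median 5.21) in the control. Of these spots 1, 2 and 3 were flagged well above background in the same order, all of them among the 10 spots of Wisp2, which as a probe missed the 50% rule. No ratio is given for these genes. The lowest signal of any probe well above background on an array was 9.27, in the control.

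The member ratios were small on all arrays. At a 2-fold threshold 0 of 32 measured members were higher and 0 lower with the high dose than in the control, where 0.0621% of all 14495 measured gene names were higher and 0.0552% lower. For the low dose against the control the count was 0 of 31 each way, beside 0.0684% higher and 0.0479% lower of all 14621 gene names. Between the doses it was 0 of 30 each way, beside 0.0483% and 0.0276% of 14480. Most members stayed under 1.2-fold, namely 28 of 32, 29 of 31 and 29 of 30 in the same order.

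A smaller threshold, at least 1.2-fold and more than 2 spot errors, called few members. With the high dose 0 members were called higher than the control and 2 were called lower, Wnt6 and Notum (6.25%), beside 4.3% of all gene names called higher and 4.62% called lower. With the low dose 0 were called higher and 1 was called lower, Wnt1 (3.23%), beside 1.33% and 1.76%. Between the doses 0 were called higher with the high dose and 1 lower, Notum (3.33%), beside 3.76% and 2.99%. With so few genes called, these shares lie near the background, and they are no result about the members as a group.

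The zero point of these ratios depends on the scaling. Spike-in probes, which read control RNAs added to a sample, were lower by 0.16 on the log2 scale on both polyphosphate arrays than on the control array, averaged over 8 of 10 such probes. Centring on them raises every ratio to the control by 0.16 and leaves the ratio between the doses almost in place (a shift of -0.00). Of all calls at the smaller threshold 48.2% were higher calls with the high dose, and 95.6% under spike-in centring. For the low dose the share was 42.9%, with 96.8% under spike-in centring and 32.2% under normexp background correction. Between the doses it was 55.7%, with 70.6% under normexp. A member ratio to the control between -0.16 and 0 therefore turns above 0 under spike-in centring, which concerns many of the values below. Under that centring 4 of 32 members were called higher with the high dose (Axin2, Fzd1, Lrp5 and Wnt5a) and 0 lower. Of all 14495 gene names 2658 were then called higher and 121 lower. With the low dose 6 of 31 members were then called higher (Axin2, Fzd2, Lrp5, Tcf7, Tcf7l2 and Wnt5a) and Wnt1 lower. Of all 14621 gene names 1626 were called higher there and 54 lower.

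Wnt6, a ligand that can steer mesenchymal precursors towards osteoblasts, had the lowest ratio of the members with the high dose. Its probe had 2 spots per array, with scaled signals of 360 and 379 with the high dose, 381 and 414 with the low dose and 462 and 490 in the control. Both control spots lay above all 4 polyphosphate spots, and the spots of the 2 doses did not overlap. Such separation of 2 spots per array is given here and below as description only, without its share over all probes. It also occurred in every comparison for Dkk2, which was below background throughout. The log2 ratio of Wnt6 to the control was -0.37 ± 0.08 (spot error) for the high dose, at which Wnt6 was called lower, and -0.26 ± 0.08 for the low dose, just short of 1.2-fold. The ratio between the doses was -0.11 ± 0.08. Over the 9 alternatives that can move it the high dose ratio ran from -0.37 to -0.21, the value nearest 0 being that of spike-in centring, where it was no longer past 1.2-fold. Its neighbour Wnt10a had scaled signals of 383, 358 and 363 on the high dose, low dose and control arrays, with ratios to the control of 0.08 ± 0.09 and -0.02 ± 0.09.

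Wnt1, a founding member of the family that signals through beta-catenin, was lowest on the low dose array. Its scaled spot signals were 168 and 202 with the high dose, 147 and 175 with the low dose and 207 and 227 in the control. All 4 polyphosphate spots lay below both control spots, while the spots of the 2 doses overlapped. The log2 ratio to the control was -0.43 ± 0.11 for the low dose, at which Wnt1 was called lower, and -0.23 ± 0.11 for the high dose, under 1.2-fold. The low dose ratio ran from -0.43 to -0.27 over 9 alternatives, and it remained past the threshold at the spike-in centring, its value nearest 0. The ratio between the doses was 0.20, with a spot error of 0.12, so the doses did not differ by more than 2 spot errors. Wnt10b, its neighbour, had scaled signals of 1786, 1934 and 1804 on the high dose, low dose and control arrays, and no ratio over 2 spot errors.

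Notum, the secreted enzyme that inactivates Wnt proteins by removing their lipid, was read by 1 spot per array. Its scaled signal was 233 with the high dose, 289 with the low dose and 287 in the control. The low dose and control values were alike, and the high dose value stood below both. The log2 ratio was -0.30 ± 0.14 for the high dose against the control and -0.32 ± 0.14 between the doses, both called lower, and 0.01 ± 0.13 for the low dose against the control. With 1 spot the error comes wholly from other probes of like level, and the ratios exceeded 2 spot errors by little. The first ran from -0.32 to -0.14 and the second from -0.34 to -0.23 over the alternatives, and neither passed the threshold under normexp background correction, nor the first under spike-in centring. Porcn, which adds the lipid, had scaled signals of 1855, 1908 and 1869 on the high dose, low dose and control arrays and ratios to the control of -0.01 ± 0.06 and 0.03 ± 0.06.

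Wif1, a secreted protein that binds Wnt ligands, had 10 spots per array, the most of any member probe above background. Its scaled signal averaged 5968 with the high dose, 7011 with the low dose and 6839 in the control. All 10 high dose spots lay below every low dose spot, and 9 of 10 lay below every control spot, while low dose and control spots overlapped. The log2 ratio was -0.20 for the high dose against the control and -0.23 between the doses, with standard errors from its own 10 spots of 0.03 and 0.03, and 0.04 ± 0.03 for the low dose against the control. These differences exceeded the spread between spots, yet they were under 1.2-fold, so Wif1 was not called. Under spike-in centring the ratio of the low dose and of the high dose to the control each rise by the shift given above, while the ratio between the doses stays.

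**Figure D2:**
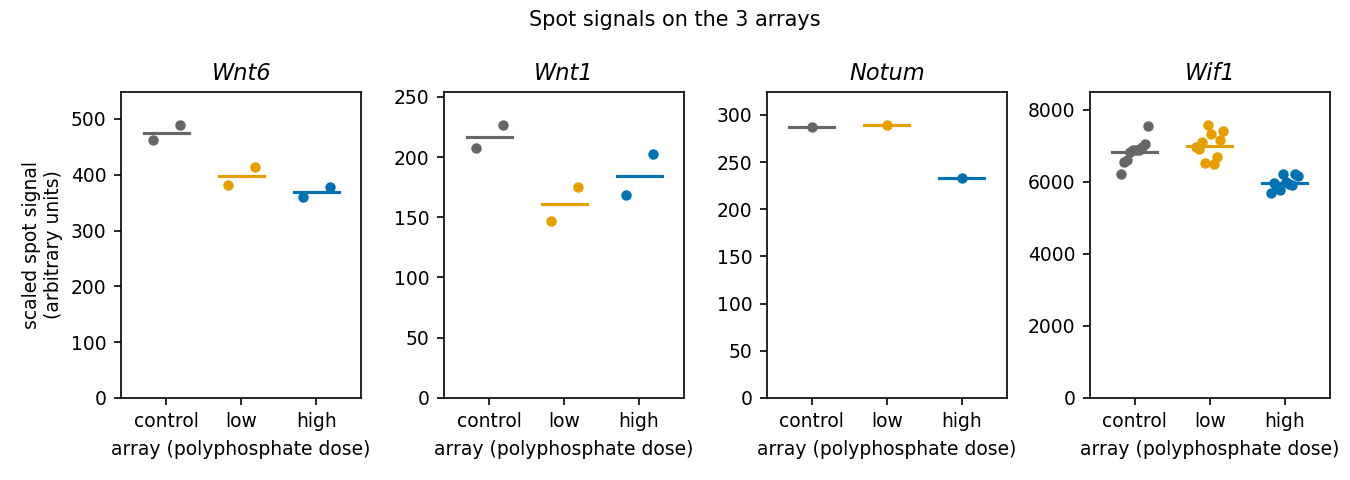
Scaled spot signals (y axis, arbitrary units from 0) of Wnt6, Wnt1, Notum and Wif1 on the control, low dose and high dose arrays (x axis). Each point is 1 spot and each line the mean of the spots of 1 array, so points are technical repeats and not replicates. The high dose mean of Wif1 is 5968 against 6839 in the control, a log2 ratio of -0.20 that spike-in centring takes to -0.04.

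Among the other detected ligands, Wnt4 and Wnt7a had the lowest ratios to the control. Wnt4 had scaled signals of 151, 162 and 180 on the high dose, low dose and control arrays, and ratios to the control of -0.26 ± 0.12 and -0.15 ± 0.11. The high dose value of Wnt4 exceeded 2 spot errors but was under 1.2-fold. Wnt7a was dimmer, at 46.6, 43.1 and 57.9 on the same arrays, with ratios to the control of -0.31 ± 0.22 and -0.42 ± 0.23. Its 2 high dose spots, 35.0 and 62.1, lay on either side of the control spots, 56.4 and 59.4, while both low dose spots, 41.0 and 45.4, lay below them. Neither ratio exceeded 2 spot errors. Wnt5a, a ligand of the non-canonical branches, ran the other way, with 257, 261 and 231 on the high dose, low dose and control arrays. Both of its ratios to the control, 0.15 ± 0.10 and 0.17 ± 0.10, were within 2 spot errors. Wnt7b, at 145, 145 and 148, and Wnt5b, at 22.2, 23.2 and 22.7 on the same arrays, had ratios near 0 in every comparison. Wnt5b was near the detection limit, with 1 of its 2 spots flagged well above background on each array. Its high dose spots were 15.1 and 32.7, and its spot errors of 0.25 to 0.26 were larger than its ratios.

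Receptors gave 0 calls in all 3 comparisons under the 75th percentile scaling, and under spike-in centring those named above. Fzd1, a Frizzled receptor of the canonical pathway, had scaled spot signals of 568 and 604 with the high dose, 540 and 558 with the low dose and 504 and 526 in the control. The spots of the 3 arrays did not overlap and were lowest in the control and highest with the high dose, with log2 ratios to the control of 0.19 ± 0.07 and 0.09 ± 0.08. The co-receptor Lrp5, in which loss lowers and gain raises bone mass in people, had spots of 961 and 1008 with the high dose, 1015 and 1028 with the low dose and 893 and 904 in the control. All its polyphosphate spots lay above the control spots, at ratios of 0.13 ± 0.07 and 0.19 ± 0.07, the second over 2 spot errors and both under 1.2-fold. Lrp6 was read by 2 probes, with signals of 685, 691 and 754 and of 561, 596 and 570 on the high dose, low dose and control arrays, and its gene ratios were -0.08 ± 0.05 and -0.03 ± 0.05. The related receptor Lrp4, which anchors Sost in bone, was dim at 38.2, 40.4 and 40.8 on those arrays.

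The other Frizzled genes had no ratio over 2 spot errors. Fzd3 had signals of 452, 483 and 492, Fzd10 of 413, 471 and 457 and Fzd2 of 166, 181 and 168 on the high dose, low dose and control arrays. Fzd7 was at 48.6, 46.4 and 51.3 on those arrays, with spot errors of 0.33 to 0.35 that were larger than its ratios. Fzd6 was at 37.8, 39.5 and 44.2 by a probe of 2 spots, with ratios to the control of -0.23 ± 0.24 and -0.16 ± 0.25, and its other probe, of 10 spots, was below background on every array. Of the 9 measured receptors 2 had a ratio above 0 with the high dose and 4 with the low dose. Under spike-in centring, which raises the ratios of all genes to the control by 0.16, 8 and 8 did. Rspo3, whose protein keeps Frizzled receptors at the cell surface, had signals of 70.1, 73.4 and 71.1 on the high dose, low dose and control arrays.

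Dkk1, the antagonist that binds Lrp5 and Lrp6, was read by 2 probes of very different brightness. The brighter had signals of 5205, 5817 and 5593 and the dimmer of 165, 166 and 169 on the high dose, low dose and control arrays. The gene's ratios to the control were -0.07 ± 0.07 and 0.02 ± 0.07, and the ratio between the doses was -0.09 ± 0.07. Both bright spots of the high dose, 4972 and 5448, lay below both of the low dose, 5604 and 6039, and they overlapped those of the control.

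Sost, Sfrp4 and Sfrp5 were near the detection limit, and on some arrays their probes missed the background flag. For such a probe the fold is the brighter array's mean divided by the dim array's own value, a plain ratio of 2 signals. Where the lowest value above background on the dim array is larger, it is the divisor and the fold is a bound, given as at least N-fold. Sost, the bone antagonist made mainly by osteocytes, had scaled spot signals of 17.1 and 24.7 with the high dose, 14.1 and 19.9 with the low dose and 20.9 and 31.8 in the control. Both low dose spots lay under both control spots, and the low dose signal was 1.54-fold lower than the control. The high dose ratio to the control was -0.33 ± 0.25, within 2 spot errors. Sfrp5 had 2 probes of 1 spot each, at 19.1, 35.2 and 31.6 and at 21.7, 25.8 and 15.2 on the high dose, low dose and control arrays. The first was 1.65-fold lower with the high dose than in the control. The second had a higher signal, below the flag's limit on both of these arrays, and the probes disagreed. Between the doses Sfrp5 was 1.84-fold and 1.19-fold lower with the high dose by the same probes. Sfrp4 had high dose spots of 9.02 and 24.9, which spanned the control spots of 13.7 and 16.7, and it gave no fold against the control. Against the low dose, with spots of 10.6 and 11.4, Sfrp4 was 1.36-fold higher with the high dose, a ratio that rests on 1 of its 2 high dose spots. These folds carry no error.

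Axin2, a scaffold of the complex that degrades beta-catenin and a widely used readout of the canonical pathway, had scaled spot signals of 288 and 298 with the high dose, 295 and 309 with the low dose and 261 and 275 in the control. All 4 polyphosphate spots lay above both control spots. The ratios to the control, 0.13 ± 0.09 and 0.17 ± 0.09, were within 2 spot errors and were not called, whereas under spike-in centring both were called higher. Axin1, which does the same work without being induced by the pathway, had signals of 2092, 2086 and 2133 on the high dose, low dose and control arrays. Nkd2, which dampens signalling at Dishevelled, had probes at 430, 448 and 464 and at 49.6, 57.8 and 50.4, and its gene ratios to the control were -0.07 ± 0.17 and 0.07 ± 0.16.

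Of the factors that bind DNA with beta-catenin, Tcf7l2 had ratios to the control of 0.09 ± 0.06 for the high dose and 0.15 ± 0.06 for the low dose. Its 2 probes had signals of 863, 858 and 759 and of 1863, 2044 and 1878 on the high dose, low dose and control arrays, so the first probe was higher on both polyphosphate arrays and the second on the low dose array only. Tcf7 had 1615, 1766 and 1607 and Tcf7l1 had 106, 108 and 116 on those arrays, with ratios within 2 spot errors. The Tcf7l1 values are those of 1 of its 2 probes. Its other probe, at 5.47, 5.53 and 9.63, was below background on every array. Wisp1, a secreted matricellular protein now named Ccn4, had 62.0, 56.9 and 55.7 and a high dose ratio of 0.15 ± 0.20.

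Lef1, a factor that osteoblast precursors use, was read by 3 probes that gave unlike levels. The brightest had 1 spot, at 33.7, 24.8 and 38.7 on the high dose, low dose and control arrays. Its low dose signal, not flagged well above background, was 1.56-fold lower than the control, a plain ratio with no error given. Its high dose ratio to the control was -0.20 ± 0.34. The other 2 probes together span chr2:228659730-228659797 of rn4. They overlap by 52 bases and differ at 4 of those bases. A window of 30 shared positions, chr2:228659746-228659775 as placed by the files, is shown because 1 probe of the pair had signal above background and the other never did, and the capitals mark the 3 positions in it at which the probes differ.
Lef1 probe with control signal: ggAttcaggcaagcctacccatcCtcactG
Lef1 probe without signal: ggGttcaggcaagcctacccatcTtcactT
The first had scaled spot signals of 13.3 and 14.5 with the high dose, 6.56 and 8.89 with the low dose and 11.0 and 22.4 in the control, where 1 of its 2 spots was well above background. By this probe the low dose was at least 1.53-fold lower than the control. The second lay between 3.86 and 5.25 on all arrays.

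**Figure D3:**
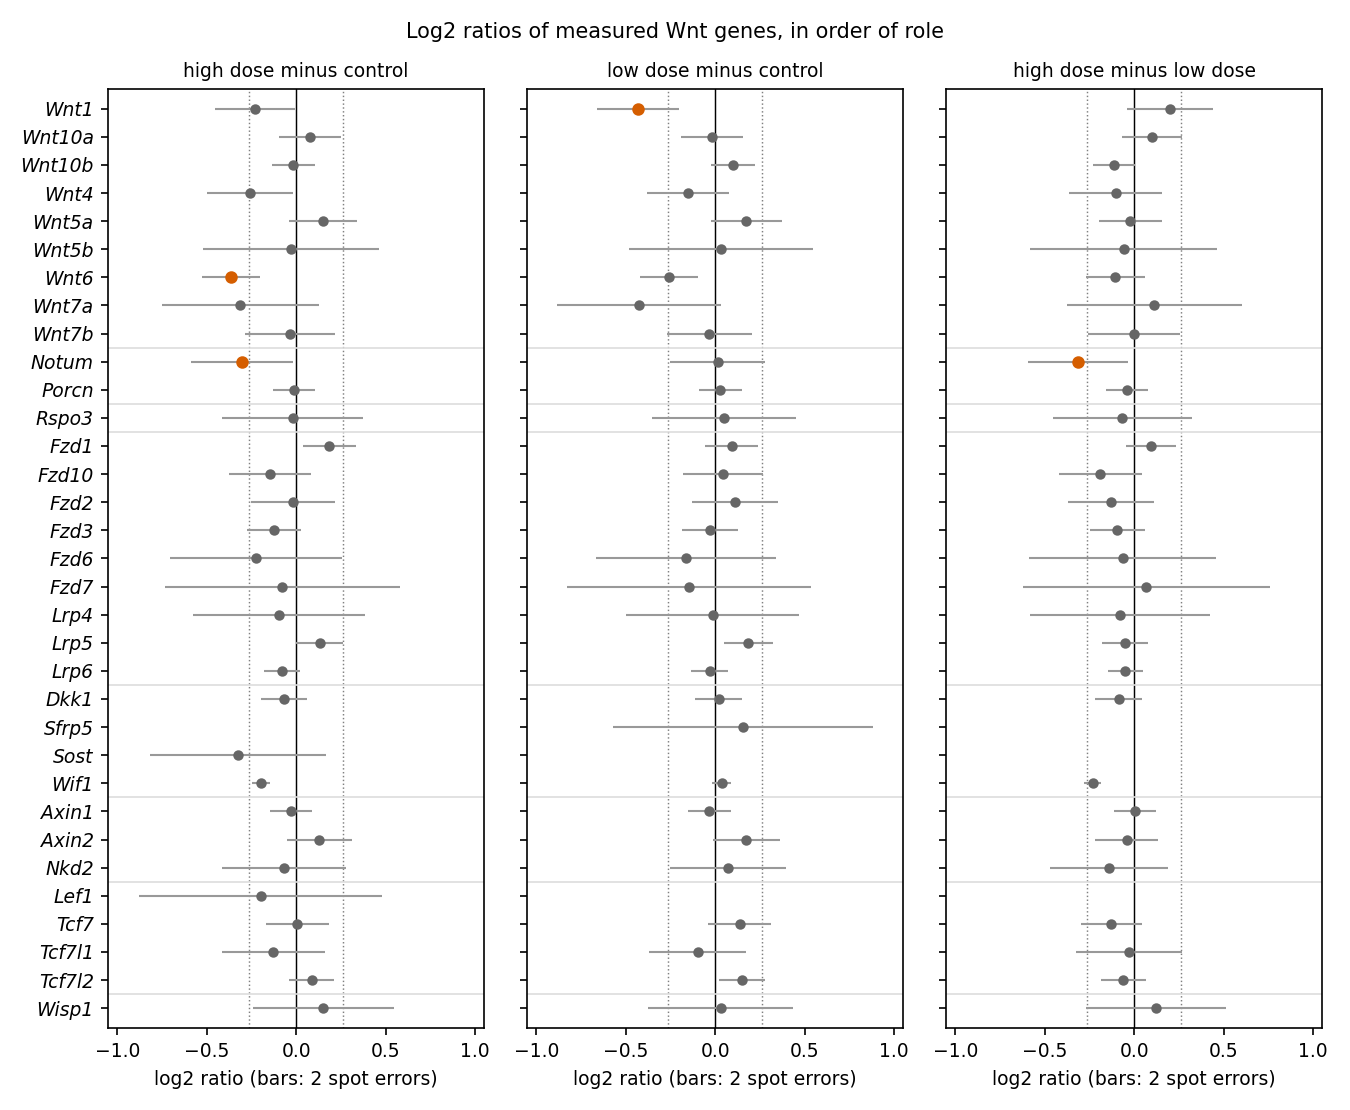
Log2 ratio (x axis) of each measured member (y axis, in order of role) for the high dose against the control, the low dose against the control and the high against the low dose. Points are gene means, bars 2 spot errors, dotted lines 1.2-fold, and orange points the called genes: Wnt6 at -0.37 and Notum at -0.30 in the first panel, Wnt1 at -0.43 in the second and Notum at -0.32 in the third. Spike-in centring moves the first 2 panels to the right by 0.16, so that 23 of 32 and 27 of 31 ratios lie above 0. The medians over all gene names then become 0.15 and 0.16.

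Over all measured members, the median log2 ratio was -0.07 for the high dose against the control, beside -0.01 over all gene names, and it was 0.09 under spike-in centring. For the low dose it was 0.03 beside 0.00, and between the doses -0.06 beside -0.01. Ratios above 0 were held by 8 of 32 members (25.0%, against 47.9% of all gene names), 18 of 31 (58.1%, against 50.4%) and 7 of 30 (23.3%, against 47.0%). Under spike-in centring these were 23, 27 and 7 members, where the medians over all gene names became 0.15, 0.16 and -0.01. Both dose comparisons share the control array, and the high dose array enters 2 of the 3 comparisons, so their values are not independent.

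The standard deviation of the members' ratios was 0.15, 0.16 and 0.11 on the log2 scale in the 3 comparisons, in the order above. Their root mean square spot error, to which dim probes add most and which leaves out any spread between cultures, was 0.16, 0.16 and 0.15. Over all gene names the standard deviation was 0.20, 0.16 and 0.19, with a spot error of 0.14, 0.15 and 0.14. Ratios beyond 2 spot errors were found in 6 of 32 members (18.8%, against 23.6% of all gene names), 4 of 31 (12.9%, against 8.56%) and 2 of 30 (6.67%, against 20.6%). Those beyond 2 spot errors with the high dose were Fzd1 on the higher side and Wnt1, Wnt4, Wnt6, Notum and Wif1 on the lower side. With the low dose they were Lrp5 and Tcf7l2 on the higher side and Wnt1 and Wnt6 on the lower. Between the doses they were Notum and Wif1, both lower with the high dose.

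The rest of the pathway was read through lists that do not hold the members and that were drawn up with earlier results of these data known. All counts of calls in them are to be read beside the shares over all gene names given above, which under spike-in centring became 18.3% higher with the high dose and 11.1% higher with the low dose. Of the genes that carry the signal inside the cell, 30 were on the array and 26 were measured. With the high dose 1 was called higher than the control, Apc at 0.53 ± 0.25, a scaffold of the degradation complex. Called lower were 3, namely Gsk3a at -0.39 ± 0.14, a kinase of that complex, Apc2 at -0.35 ± 0.13 and Aes at -0.32 ± 0.06, a short Groucho-type protein. Under spike-in centring 5 were called higher (Apc, Btrc, Csnk1a1, Dact3 and Pygo1) and 0 lower. The list's median was -0.03, with 0.13 under that centring. With the low dose 0 were called either way and the median was -0.01, and under spike-in centring 1 was called higher, Cby1. Between the doses Csnk1a1, a kinase that primes beta-catenin for degradation, was called higher with the high dose at 0.31 ± 0.06 and Gsk3a lower at -0.30 ± 0.15.

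Of other genes for Wnt secretion, reception and receptor turnover, 21 were on the array and 9 were measured. With the high dose 0 were called either way, and under spike-in centring 3 were called higher (Igfbp4, Lgr4 and Wls). With the low dose 0 were called higher and 2 lower, Ptk7 at -0.32 ± 0.08, a co-receptor of the planar polarity branch, and Mesdc1 at -0.44 ± 0.18. Mesdc1 was listed by name beside Mesdc2, and its own part in Wnt signalling was not established here. Under spike-in centring 0 were called either way with the low dose. Between the doses Ptk7 was called higher with the high dose at 0.28 ± 0.07 and Kremen1, a receptor for Dkk1, lower at -0.30 ± 0.13. Of the planar polarity and calcium branch 19 were on the array and 12 or 13 were measured, with 0 calls in any comparison and medians of 0.13, 0.01 and 0.10 in the order used above. Under spike-in centring 7 of 13 were called higher with the high dose (median 0.29), 4 of 12 with the low dose (median 0.18) and 0 between the doses.

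Textbook targets of beta-catenin numbered 30 on the array, of which 20 were measured. With the high dose 5 (25%) were called higher than the control and 0 lower, beside the 4.3% and 4.62% of all gene names. Under spike-in centring 10 (50%) were called higher, beside 18.3%. The 5 were Ppard at 0.69 ± 0.30, a lipid-sensing nuclear receptor, Fgf9 at 0.57 ± 0.08, a growth factor, Vegfa at 0.55 ± 0.04, the vascular growth factor, Myc at 0.43 ± 0.02, a growth-promoting transcription factor, and Jag1 at 0.33 ± 0.06, a Notch ligand. With the low dose Vegfa alone was called higher, at 0.26 ± 0.04, and 0 were called lower, while under spike-in centring 6 were called higher. Between the doses 4 were called higher with the high dose, namely Fgf9, Myc and Vegfa again and Cd44, a hyaluronan receptor, at 0.28 ± 0.09. The list's medians were 0.10, 0.05 and 0.06, beside the medians over all gene names given above. Many of these genes answer to other pathways as well. The list leaves out all members, so Axin2 and Dkk1, which are known to answer to the pathway, are not in these counts. With the high dose neither was called, at 0.13 ± 0.09 and -0.07 ± 0.07, and 0 of 32 members were called higher. Under spike-in centring Axin2 was called higher, at 0.29, and Dkk1 was not, at 0.09. Of the 30 targets 9 were well above background on no array, namely Ascl2, Edn1, Fgf18, Lgr5, Mmp7, Rnf43, Sp5, T and Tnfrsf11b. Znrf3, a feedback regulator of Frizzled receptors, was above it in the control only.

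**Figure D4:**
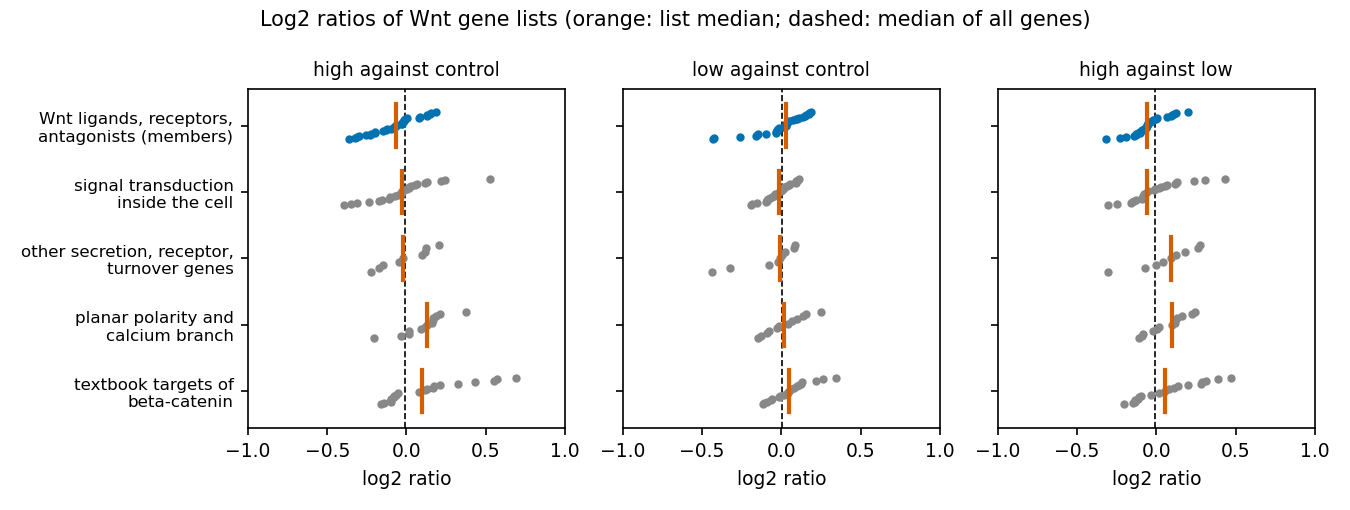
Log2 ratios (x axis) of the members and of 4 lists of other Wnt pathway genes (y axis) in each comparison, with 1 point for each measured gene, the list's median as an orange bar and the median over all gene names as a dashed line. The members' medians are -0.07, 0.03 and -0.06 and those of the beta-catenin targets 0.10, 0.05 and 0.06. Under spike-in centring all points of the first 2 panels move to the right by 0.16. This takes the members' first median to 0.09 and that over all gene names to 0.15.

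Promoter sequence was available here from RefSeq (build GRCr8) for 40 of 61 members, as the 250 bases before the transcription start. They were searched on both strands for CTTTGAA or CTTTGAT, the core letters that Tcf and Lef factors bind. The letters were in 4 of 40 windows (10.0%), those of Axin2, Dkk1, Nkd1 and Wnt8a, beside 2537 of 33469 windows of all genes (7.58%), and in 2 of 21 windows of members detected on any array. The windows of these 2, Axin2 and Dkk1, are shown with the matches in capitals, since both genes are known to answer to the pathway. A match describes the letters only and is not evidence of binding.
Axin2: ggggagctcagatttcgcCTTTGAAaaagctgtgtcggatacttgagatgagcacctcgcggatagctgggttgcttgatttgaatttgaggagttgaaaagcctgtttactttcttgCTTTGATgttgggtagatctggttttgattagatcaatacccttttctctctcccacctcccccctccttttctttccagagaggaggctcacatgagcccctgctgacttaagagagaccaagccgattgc
Dkk1: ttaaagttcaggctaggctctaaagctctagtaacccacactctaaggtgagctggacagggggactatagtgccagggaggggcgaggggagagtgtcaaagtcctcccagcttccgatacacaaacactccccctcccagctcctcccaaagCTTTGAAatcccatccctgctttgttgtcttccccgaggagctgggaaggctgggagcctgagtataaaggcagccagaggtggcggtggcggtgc
The Axin2 window is chr10:94398535-94398784 on the plus strand, with matches that begin 232 and 132 bases before the start, and the Dkk1 window is chr1:237798651-237798900 on the minus strand, with a match that begins 96 bases before it. Neither gene passed the call rule in any comparison under the 75th percentile scaling. The Axin2 ratios to the control were above 0 and those of Dkk1 were below 0 with the high dose and near 0 with the low dose, and spike-in centring takes the Dkk1 values above 0 too.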

How the data were processed

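Total RNA was labelled with Cy3 and hybridised to Agilent rat arrays, 1 per group, per the labels. The spot intensity values are the authors' deposited scanner output, made per the file headers with Feature Extraction 10.7.3.1 (protocol GE1_107_Sep09, design 028279, coordinates on rn4). Per the file headers the processed signal was background-subtracted and detrended. The series' value table, deposited by the authors, is a ratio of that signal to 1 constant per array (823, 849 and 823 for high dose, low dose and control, column medians 0.0734, 0.0731 and 0.0737), and served as an alternative. No source used here says how those constants were chosen.

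From these values log2 of each processed signal was taken here and each array centred on its 75th percentile. Spots flagged as outliers (352, 368 and 426) were left out, except where a probe had no other spot. Spots of a probe were averaged, and then those probes of a gene that passed the background flag on both arrays compared. The spot error pools the SD between repeat spots in 20 bins of level, 0.24 to 0.27 in the dimmest and 0.05 in the brightest. The number of arrays limits the precision. Calls need 2-fold, or 1.2-fold with more than 2 spot errors. Members were named with their signals where a probe was well above background on any array, and other genes only as called members of the lists, at most 4 per list and comparison. Jag1, called beyond those 4, genes called under spike-in centring only, Sox9, and the targets listed as undetected were named after their values were seen. The rule for the members reads gene names only, but it and the lists were chosen with earlier results of these data known. Of 74 member probes 64 matched a RefSeq symbol by accession. The error estimate was tested on simulated data with the same spot SD at every level, so its change with level was not tested. Python 3.11.15, numpy 2.4.6, pandas 2.3.3, R 4.3.3 and limma 3.58.1 (normexp with offset 50) were used, and quantile normalization was computed in Python. Alternatives were normexp, quantile, median and spike-in scaling, the series table, kept outlier spots, other filters and the brightest probe of a gene.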

Additional observations from a re-analysis of the deposited data

How the results depend on the processing

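Recomputing the counts and medians under 10 alternatives left 128 values in place, a count within 1.5 times the reported one or a median within the members' spot error, and moved 13. That spot error is one of single genes and a wide limit for a median, so a median counted as in place can still have shifted. Ratios of single members stayed within 1 spot error in 779 cases and moved further in 54, and no called ratio changed sign. Under spike-in centring the members called higher at 1.2-fold became 4 for the high dose (Axin2, Fzd1, Lrp5 and Wnt5a) and 6 for the low dose (Axin2, Fzd2, Lrp5, Tcf7, Tcf7l2 and Wnt5a), those called lower with the high dose became 0, and the low dose median became 0.19 and the high dose median 0.09. Normexp left 1 called lower with the high dose (Wnt6) and 0 between the doses. With no filter on dim probes the low dose had 1 member 2-fold lower (Dkk3), and counts at 1.2-fold became 2 higher and 4 lower for the high dose, 1 higher and 7 lower for the low dose, and 7 higher and 3 lower between the doses. Over all gene names the high dose calls were 623 higher and 669 lower, against 223 and 221 under normexp, 2658 and 121 under spike-in centring and 1891 and 1950 with no filter. The low dose calls were 194 and 258, against 48 and 101, 1626 and 54, and 1037 and 1685 in that order. Those between the doses were 545 and 433, against 207 and 86 under normexp and 1884 and 1192 with no filter. No paired analysis was possible because each group has 1 array. Signal over background limits the dim members, whose spot error is largest, and 1 array per group leaves the spread between cultures unmeasured.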
